A study of Mus musculus with 11 samples.

Results

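The proteasome genes and the gene for their transcription factor NRF1 were followed across 11 mouse progenitor clones with or without tafazzin. Members were taken by symbol: protein-coding genes named Psma, Psmb, Psmc, Psmd, Psme or Psmg followed by a number, together with Nfe2l1, Ddi2 and Pomp. In the annotation 50 symbols met this rule, and 49 of them had a gene identifier among the 37583 in the count data. Psmb9 was not matched by identifier and was not analysed here. Psma8 and Psmb11 did not pass the filter on low counts, which left 47 members among 11900 tested genes. By role, the tested members were 14 subunits of the core particle, 17 subunits of the regulatory cap, 5 core assembly factors, 3 cap assembly factors, 4 activators, 2 immunoproteasome subunits, and Nfe2l1 with Ddi2.

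The cells were clonal lines of C57BL/6 mouse granulocyte-monocyte progenitors from fetal liver at embryonic day 15.5, and each clone gave 1 RNA library. There were 6 wild-type (WT) clones, named 1A to 1C and 2D to 2F, and 5 knockout (KO) clones lacking Taz, which encodes tafazzin. The KO clones are named 3H, 3I, 4J, 4K and 4L, and their values are always given in this order. Tafazzin is the enzyme that matures cardiolipin, a phospholipid of mitochondria. All 11 lines carried the same conditional immortalisation, an estrogen receptor fusion of the transcription factor Hoxb8 (ER-Hoxb8), and were kept immature by 0.5 uM beta-estradiol in medium with stem cell factor. Every line descended from a single cell, no source used here gives the part of Taz that was deleted, and the number that opens each clone name has no stated meaning. Nothing states which clones came from separate animals, so p-values speak only of the spread among the 11 clones, which may be technical in part.

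The proteasome degrades proteins that carry ubiquitin chains. Its barrel-shaped core has outer rings of alpha subunits and inner rings of beta subunits, of which Psmb5, Psmb6 and Psmb7 encode the constitutive catalytic members, and its cap has a ring of ATPases (Psmc genes) that unfolds substrates and further subunits (Psmd genes) that bind and trim ubiquitin. NRF1, the product of Nfe2l1, is made in the membrane of the endoplasmic reticulum and is normally extracted and degraded. When proteasome activity is short it escapes, is cut by the protease DDI2 and, paired with a small MAF protein, turns on the proteasome subunit genes at antioxidant response elements. In immune cells, interferon-inducible catalytic subunits can replace the constitutive ones to form the immunoproteasome, which favours peptides for antigen presentation.

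Counts assigned to genes totalled 19778119 to 27431544 per clone, and members held 0.781% to 0.9005% of them. WT libraries were deeper than KO libraries (two-sided exact permutation test, p = 0.0303), so levels are given as counts scaled to library size (CPM). Taz, the check of the labels, lay between 37.0 and 43.8 CPM in WT clones and at 3.45, 3.31, 3.06, 4.09 and 2.21 CPM in the 5 KO clones. All 10 listed markers of granulocyte-monocyte progenitors were counted in every clone and none was called, with a summed level between 12970 and 22682 CPM that was carried mainly by Mpo (5347 to 13250 CPM). Elane, a granule gene of that list, was as low as 2.26 CPM, in KO 4K. Markers at 0 in every clone were Pax5 and Cd3e (lymphoid), C1qa (macrophage) and Ttr and Col1a1 (hepatocyte and stroma). Some markers of the same lists were counted in every clone. Among them were Ccr2 (363 to 1783 CPM), Pecam1 (157.5 to 501 CPM) and Ebf1 (3.56 to 42.2 CPM). The 7 megakaryocyte, mast cell and basophil markers summed to 1112 to 5013 CPM per clone, mainly Cpa3 (856 to 4326 CPM). Among the 7 marker lists of other cell types 1 tested gene was called, Cd79b, lower in KO clones.

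Nfe2l1 was the only tested member called higher in KO clones, and 4 members were called lower: the core assembly factor Pomp and the cap subunits Psmc1, Psmd1 and Psmd8. Calls are at an adjusted p under 0.05 in edgeR's quasi-likelihood test with Benjamini-Hochberg adjustment over all tested genes. The 4 lower members were 8.51% of 47, where 2.29% of all tested genes were called lower, and the single higher member was 2.13%, where 2.76% of all were called higher. In bulk RNA, fewer cells of a type and less RNA per cell cannot be told apart. Across the 47 members, 38 had a negative log2 fold change (KO minus WT), with a median of -0.07, against 51.6% negative and a median of -0.01 over all tested genes.

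**Figure D1:**
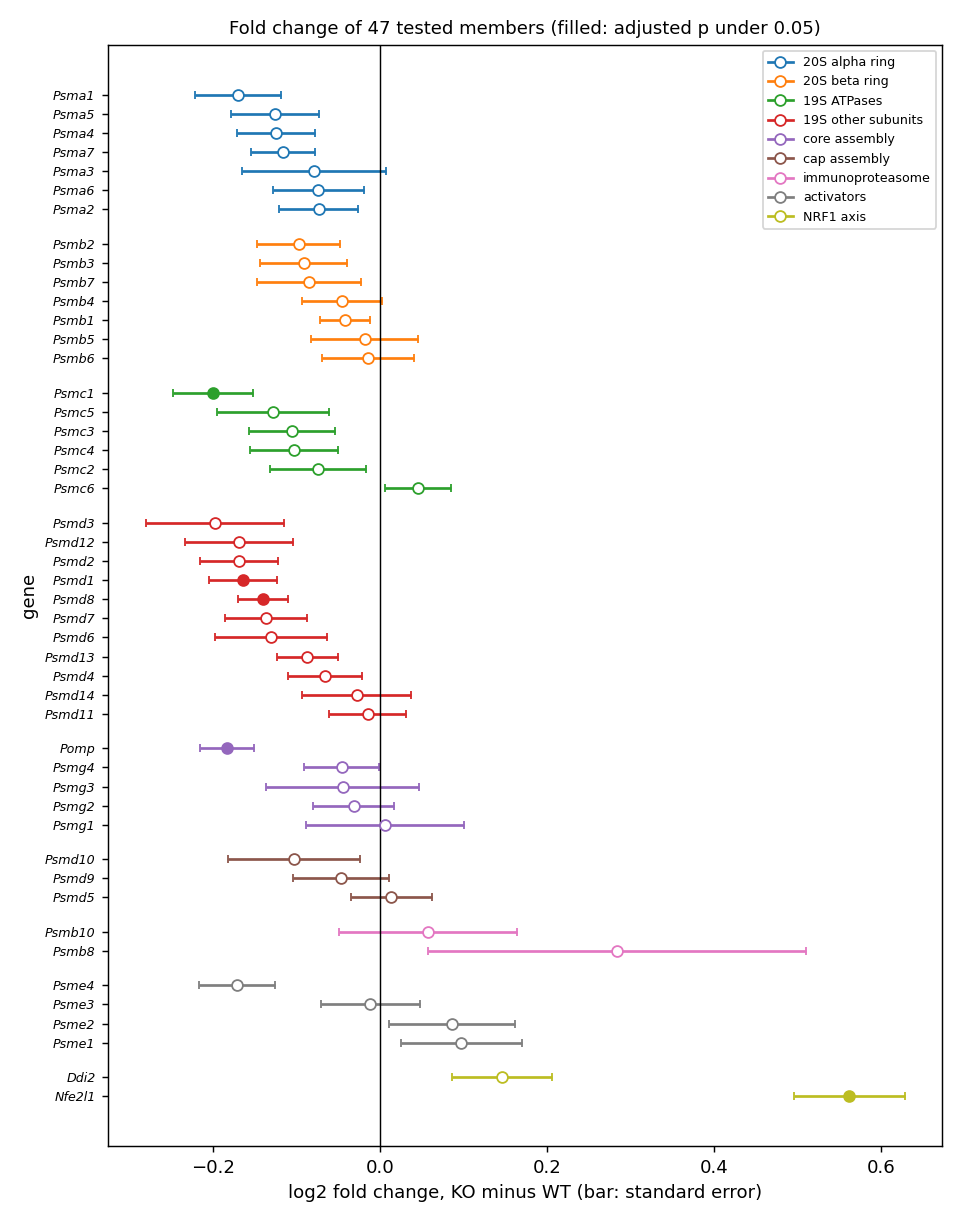
Log2 fold change of each tested member (x axis, KO minus WT, bars are the standard error) by gene (y axis), coloured by role, with filled points for an adjusted p under 0.05. The alpha and beta ring genes all lie left of 0, 5 points are filled, and Nfe2l1 stands alone at 0.56.

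Nfe2l1 lies on chromosome 11 (96817414 to 96829968, minus strand, GRCm38). Its level was lowest at 172 CPM, median 194 and highest at 207 CPM in the 6 WT clones. In the 5 KO clones it was 305, 312, 262, 268 and 263 CPM. Every KO clone was above every WT clone, with 3H and 3I the highest. This separation in the KO-above direction was seen in 2.97% of all tested genes and in no other member. The mean rose from 191 ± 14.2 to 282 ± 24.3 CPM (SD, n = 6 and 5), 148% of the WT level and a log2 fold change of 0.56 with a standard error (SE) of 0.07 (edgeR adjusted p = 0.00172). The call held when any 1 clone was left out (highest adjusted p = 0.00656). It was lost with counts summed per title number, the number that opens a clone name (log2 fold change 0.59, edgeR adjusted p = 0.0847), and without the 3 clones of title number 1 (0.48, edgeR adjusted p = 0.0505).

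Ddi2, the aspartic protease that cuts NRF1, ranged from 86.4 through a median of 93.9 to 104 CPM in WT clones. It was 106, 102, 112, 96.7 and 112 CPM in the 5 KO clones. Clones 3I and 4K lay inside the WT range, so the groups overlapped. Its log2 fold change was 0.15 ± 0.06 (SE; edgeR adjusted p = 0.195), which did not pass the test. Without WT 1A and 2D, a setting chosen after the data were seen, Ddi2 was called higher (log2 fold change 0.21). Of its exon length, 18.3% is shared with Rsc1a1 on the same strand, and reads there could be assigned to neither gene.

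**Figure D2:**
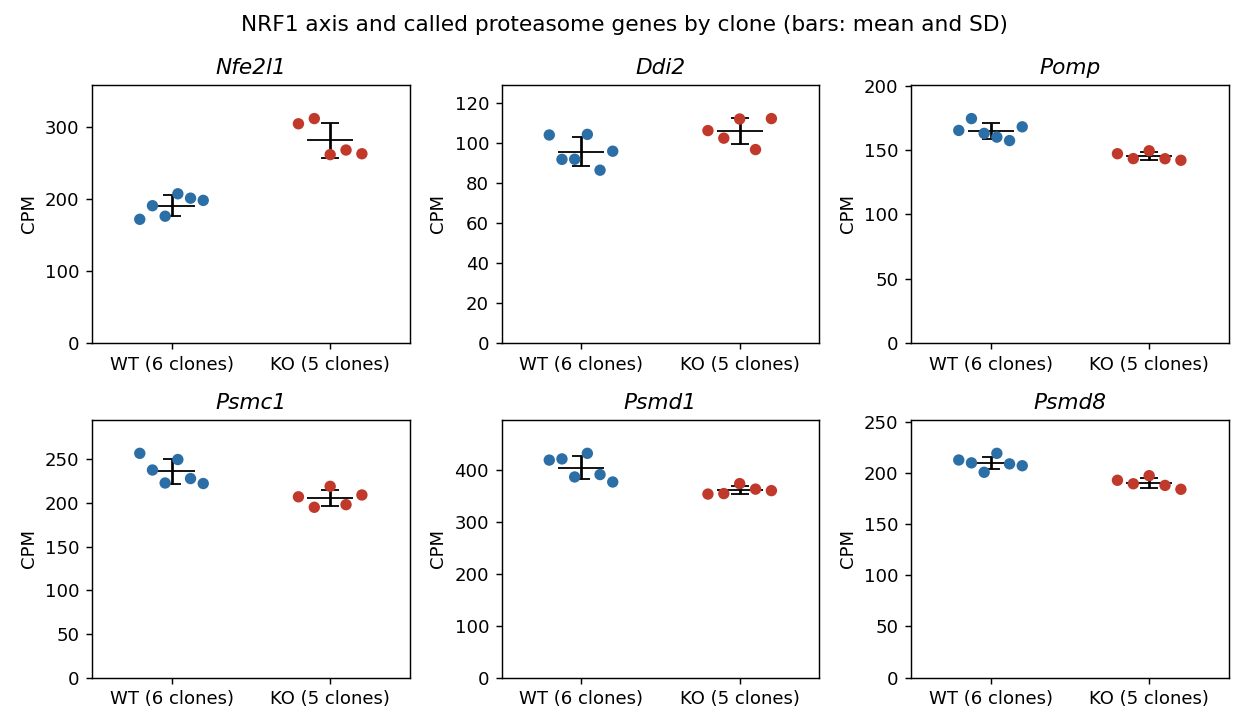
Level in CPM (y axis, starting at 0) of Nfe2l1, Ddi2 and the 4 members called lower, with 1 point per clone, WT in blue and KO in red, and black bars for the mean and SD. For Nfe2l1 the lowest KO clone, at 262 CPM, is above the highest WT clone, at 207 CPM, while Ddi2 overlaps.

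Pomp encodes the chaperone that guides assembly of the beta rings and is used up when the core is complete. It ranged from 157 through a median of 164 to 174 CPM in WT clones. It stood at 147, 143, 149, 143 and 142 CPM in the 5 KO clones, below every WT clone. Pomp was 1 of 6 members that separated in this way (12.8% of 47, against 3.02% of all tested genes), with Psmc1, Psmd1, Psmd2, Psmd8 and Psmd12. The mean fell from 165 ± 6.09 to 145 ± 3.13 CPM (SD, n = 6 and 5), a log2 fold change of -0.18 with a standard error (SE) of 0.03 (edgeR adjusted p = 0.0113), and the call held without any 1 clone (highest adjusted p = 0.0398). It was lost with counts summed per title number (edgeR adjusted p = 0.0851) and without title number 1, 3 or 4 (edgeR adjusted p = 0.137, 0.094 and 0.245).

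The other core assembly factors, the chaperones encoded by Psmg1 to Psmg4 that order the alpha ring, were not called. Their log2 fold changes lay between -0.05 (Psmg4) and 0.01 (Psmg1). Per kilobase of exon, Psmg1 was the most abundant of the core assembly factors at 67.8 ± 10.5 CPM per kb in WT and 68.1 ± 2.88 in KO clones (SD). Pomp had 32.7 ± 1.21 and 28.8 ± 0.622 CPM per kb. This order rests on the exon lengths used, 5035 bp for Pomp and 1044 bp for Psmg1. In CPM, Pomp was the higher, with a WT mean of 165 against 70.8. Psmg1 and Psmg3 varied most between WT clones, with WT 2D the highest for both, at 90.3 and 51.8 CPM.

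Psmc1 encodes an ATPase of the cap base. It ranged from 222 through a median of 233 to 257 CPM in WT clones and was 207, 195, 219, 198 and 209 CPM in the 5 KO clones. The groups were separate by a small margin, between 219 CPM in KO 4J and 222 CPM in WT 2F. The log2 fold change was -0.20 ± 0.05 (SE; edgeR adjusted p = 0.0397). The call was lost without WT 1A, 1B or 2D or without any 1 KO clone (highest adjusted p = 0.108).

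Psmd1 encodes a large scaffold subunit of the cap. It ranged from 376 through a median of 404 to 431 CPM in WT clones and was 353, 354, 373, 362 and 359.5 CPM in the 5 KO clones. All KO clones were below all WT clones, the nearest being KO 4J and WT 2F. The log2 fold change was -0.16 ± 0.04 (SE; edgeR adjusted p = 0.0416), and the call was lost without WT 1A, 1B or 1C or any 1 KO clone (highest adjusted p = 0.108). Of the exon length of Psmd1, 7.61% is shared with other genes, among them Htr2b on the opposite strand, and counting ignored strand.

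Psmd8, a cap lid subunit, ranged from 200.5 through a median of 209 to 219 CPM in WT clones. It was 193, 189, 197, 188 and 184 CPM in the 5 KO clones, all below the lowest WT clone, 1C. The log2 fold change was -0.14 ± 0.03 (SE; edgeR adjusted p = 0.0274). The call was lost without WT 1A or 1B or KO 3H, 3I, 4K or 4L (highest adjusted p = 0.0764). Pomp was thus the only lower call that held for every clone left out. Psmc1, Psmd1 and Psmd8 were also not called without the filter on low counts, with title-number means or sums, or without any 1 title number (highest edgeR adjusted p = 0.332, Psmd8).

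The promoters of the 5 called members are shown. Psmd2 and Psmd12 also separated by genotype but were not called, and their windows are not shown. Each sequence is the 250 bases before the transcription start given by RefSeq (GRCm38.p6), 5′ to 3′ on the gene's own strand: Nfe2l1 at chr11:96829969-96830218 (minus strand, the most upstream of 5 listed starts), Pomp at chr5:147860378-147860627 (plus), Psmc1 at chr12:100109952-100110201 (plus), Psmd1 at chr1:86064369-86064618 (plus) and Psmd8 at chr7:29180674-29180923 (minus). Capitals mark matches on either strand to 5 sets of letters: TGACNNNGC and TGAGNNNGC, the core letters of the antioxidant response element, the CCAAT box, the ETS factor letters CCGGAAG, and TTCNNNGAA, the letters of STAT sites.
Nfe2l1: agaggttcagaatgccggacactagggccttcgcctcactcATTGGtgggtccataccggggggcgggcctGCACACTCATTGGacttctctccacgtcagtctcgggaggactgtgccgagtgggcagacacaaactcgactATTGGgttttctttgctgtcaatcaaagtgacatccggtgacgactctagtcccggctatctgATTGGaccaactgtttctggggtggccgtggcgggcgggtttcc
Pomp: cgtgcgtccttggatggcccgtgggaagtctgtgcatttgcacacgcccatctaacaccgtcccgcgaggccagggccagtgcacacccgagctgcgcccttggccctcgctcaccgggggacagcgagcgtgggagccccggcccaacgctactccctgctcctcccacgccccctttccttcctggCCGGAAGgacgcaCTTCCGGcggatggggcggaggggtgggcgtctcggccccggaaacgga
Psmc1: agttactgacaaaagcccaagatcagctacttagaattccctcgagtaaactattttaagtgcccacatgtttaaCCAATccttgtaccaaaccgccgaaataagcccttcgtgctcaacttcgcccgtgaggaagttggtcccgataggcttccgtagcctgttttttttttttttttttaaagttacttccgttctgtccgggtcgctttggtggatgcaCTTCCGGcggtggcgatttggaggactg
Psmd1: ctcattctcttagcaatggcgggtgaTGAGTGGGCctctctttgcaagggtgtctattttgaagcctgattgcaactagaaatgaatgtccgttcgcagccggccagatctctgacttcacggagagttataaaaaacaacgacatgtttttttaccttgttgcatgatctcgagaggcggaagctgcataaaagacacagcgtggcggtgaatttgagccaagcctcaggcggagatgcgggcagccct
Psmd8: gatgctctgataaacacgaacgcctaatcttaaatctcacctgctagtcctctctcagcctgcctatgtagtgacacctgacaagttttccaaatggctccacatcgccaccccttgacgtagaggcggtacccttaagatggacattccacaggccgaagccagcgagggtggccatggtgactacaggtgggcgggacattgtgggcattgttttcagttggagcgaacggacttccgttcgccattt
Nfe2l1 held 4 CCAAT matches and 1 TGAGNNNGC match, which begins 179 bases before the start and shares 1 base with the CCAAT match beside it. Pomp held 2 CCGGAAG matches on opposite strands. Psmc1 held CCAAT and CCGGAAG, Psmd1 held TGAGNNNGC, and Psmd8 held none of the 5 in these letters. The GRCm38 gene annotation used for exon lengths sets an earlier start than RefSeq for Pomp (147860461), Psmc1 (100110154), Psmd1 (86064387) and Psmd8 (29180701). Part of each of these windows, and most of those of Pomp and Psmd1, therefore lies inside the annotated gene. So do the CCGGAAG matches of Pomp and Psmc1 and the TGAGNNNGC match of Psmd1.

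Promoters of 41 of the 49 members were matched, as 48 windows from 250 bases before to 50 after a start, beside 32851 windows of all genes. CCGGAAG on either strand was in 33.3% of member windows and 8.86% of all windows. TGAGNNNGC was in 35.4% and 17.6%, TGACNNNGC in 12.5% and 12.4%, and either of the 2 in 43.8% and 27.8%. GGGCGG, the GC box, was in 56.2% and 35.7%, CCAAT in 35.4% and 37.4%, and TTCNNNGAA in 6.25% and 8.30%. Among the 27 windows of core and cap subunits, CCGGAAG was in 40.7% and TGAGNNNGC in 40.7%. A match of letters describes the window and was not tested as a binding site.

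No core particle gene was called, although all 14 had negative log2 fold changes (median -0.08). At an unadjusted p under 0.05 edgeR's test gave 4 lower (28.6%, against 10.3% of all tested genes). At an adjusted p under 0.05 limma-voom called 0 and DESeq2 called 2, Psma1 and Psma7. DESeq2 called 1268 of 21144 genes in all. All 7 alpha ring genes had negative log2 fold changes, from -0.17 (Psma1) to -0.07 (Psma2), with a median of -0.12. Psma1 ranged from 257 through a median of 277.5 to 310.1 CPM in WT clones and was 253, 245, 257, 239.8 and 259.7 CPM in the 5 KO clones. Clones 4J and 4L lay within the WT range. Its log2 fold change was -0.17 ± 0.05 (SE; edgeR adjusted p = 0.0909). The alpha gene of highest level per length, Psma6, had 272 ± 21.9 CPM per kb in WT and 258 ± 8.89 in KO clones (SD), and the lowest, Psma3, had 10.4 ± 1.23 and 9.82 ± 0.783. These levels rest on exon lengths of 1148 bp for Psma6 and 2846 bp for Psma3. Reads that matched several places were not counted, and their share in the low Psma3 level was not tested.

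The 7 beta ring genes also had negative values throughout, closer to 0, from -0.10 (Psmb2) to -0.01 (Psmb6), with a median of -0.05. The constitutive catalytic genes Psmb5, Psmb6 and Psmb7 had log2 fold changes of -0.02 ± 0.06, -0.01 ± 0.05 and -0.08 ± 0.06 (SE). Psmb6 ranged from 125 through a median of 131 to 155 CPM in WT clones and was 141, 132, 129, 133 and 134 CPM in the 5 KO clones, all inside the WT range. Psmb4 was the most abundant per length, at 249 ± 15.8 CPM per kb in WT and 242 ± 10.7 in KO clones (SD). Psmb5, Psmb6 and Psmb7 each have an annotated pseudogene copy, and reads that matched several places were not counted, which makes their levels uncertain.

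Of the 17 cap subunits 3 were called, all lower in KO clones (17.6%, against 2.29% of all tested genes). Of the 6 ATPase genes of the base, 1 was called (Psmc1, 16.7%) and 5 had negative values, with a median of -0.10. Psmc6 was the exception, with a log2 fold change of 0.05 with a standard error (SE) of 0.04 (edgeR adjusted p = 0.559). It ranged from 229 through a median of 239.8 to 262 CPM in WT clones and was 251, 253, 252, 243 and 255 CPM in the 5 KO clones. Psmc3 was the most abundant ATPase gene per length, at 153 ± 11.4 CPM per kb in WT and 142 ± 4.63 in KO clones (SD).

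Of the 11 other cap subunits, Psmd1 and Psmd8 were called (18.2%, against 2.29% of all tested genes). All 11 had negative values, with a median of -0.14. For 4 of them (36.4%, against 3.02% of all tested genes) every KO clone was below every WT clone: Psmd1, Psmd2, Psmd8 and Psmd12. Psmd2, the second scaffold subunit of the cap, ranged from 378 through a median of 389 to 442 CPM in WT clones and was 360.4, 354.5, 360.0, 344 and 365 CPM in the 5 KO clones. Although the groups were separate, its log2 fold change of -0.17 ± 0.05 (SE) did not pass the test (edgeR adjusted p = 0.0650), though it passed without WT 2E (adjusted p = 0.0493). Psmd3 had the largest negative value, -0.20 ± 0.08 (edgeR adjusted p = 0.206), and Psmd11 the smallest, -0.01 ± 0.05. For Psmd3, WT clones ran from 247 through 260.4 to 342 CPM, with WT 2D and 1A (300.1 CPM) above the rest, and the 5 KO clones had 244, 231, 248, 234 and 249 CPM. Psmd7 was the most abundant per length, at 159 ± 11.7 CPM per kb in WT and 145 ± 2.86 in KO clones (SD).

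Summed over the 31 core and cap subunits, the level was 6834, 6325, 6109.7, 7131, 6259.9 and 6271 CPM in WT clones 1A to 2F in the order given above, and 6064, 5896, 6210.2, 5842 and 6181 CPM in KO clones 3H to 4L. The means were 6488 ± 401 CPM in WT and 6039 ± 165 CPM in KO clones (SD, n = 6 and 5), so the KO mean was 93.1% of the WT mean. WT 2D and 1A stood above all others, and KO 4J and 4L lay above the lowest WT clone, 1C. The KO mean was 95.0% of the WT mean without WT 2D and 96.8% without WT 1A and 2D. The core sum alone was 94.4% and the cap sum 92.2% of the WT mean. Of the 31 genes, 30 had negative values with a median of -0.10, while 8 of the other 16 tested members were negative, with a median of -0.003. At an unadjusted p under 0.05 in edgeR's test, 12 of the 31 (38.7%) were lower and 0 higher, against 10.3% lower among all tested genes. This count was 7 without KO 3I (8.24% of all) and 7 without WT 1A and 2D (10.9% of all). Over all settings it ran from 4 without title number 4 (5.48% of all) to 18 in limma-voom with the title number as a random block (15.9% of all). The count of negative values was 26 without WT 2D and 24 without WT 1A and 2D, with medians of -0.07 and -0.04. Psmc1 and Psmd1 were not called without WT 1A and 2D, while Pomp, Psmd8, Psmd2 and Psme4 were.

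The subunit genes moved together from clone to clone. Of the 31 core and cap genes, 25 were highest in WT 2D, 4 in WT 1A and 1 each in WT 2E and 2F. The lowest level was in KO 4K for 14 genes and in KO 3I for 7, with 3 each in KO 3H and 4L and 2 each in WT 1C and 2E. KO 4K was below all WT clones for 23 genes, 3I for 19, 3H for 13, 4L for 10 and 4J for 6. With the genotype means removed, the median Pearson r between pairs of subunit genes over the 11 clones was 0.75, and 441 of 465 pairs were positive. These pairs share libraries and scaling, so the value is a description.

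**Figure D3:**
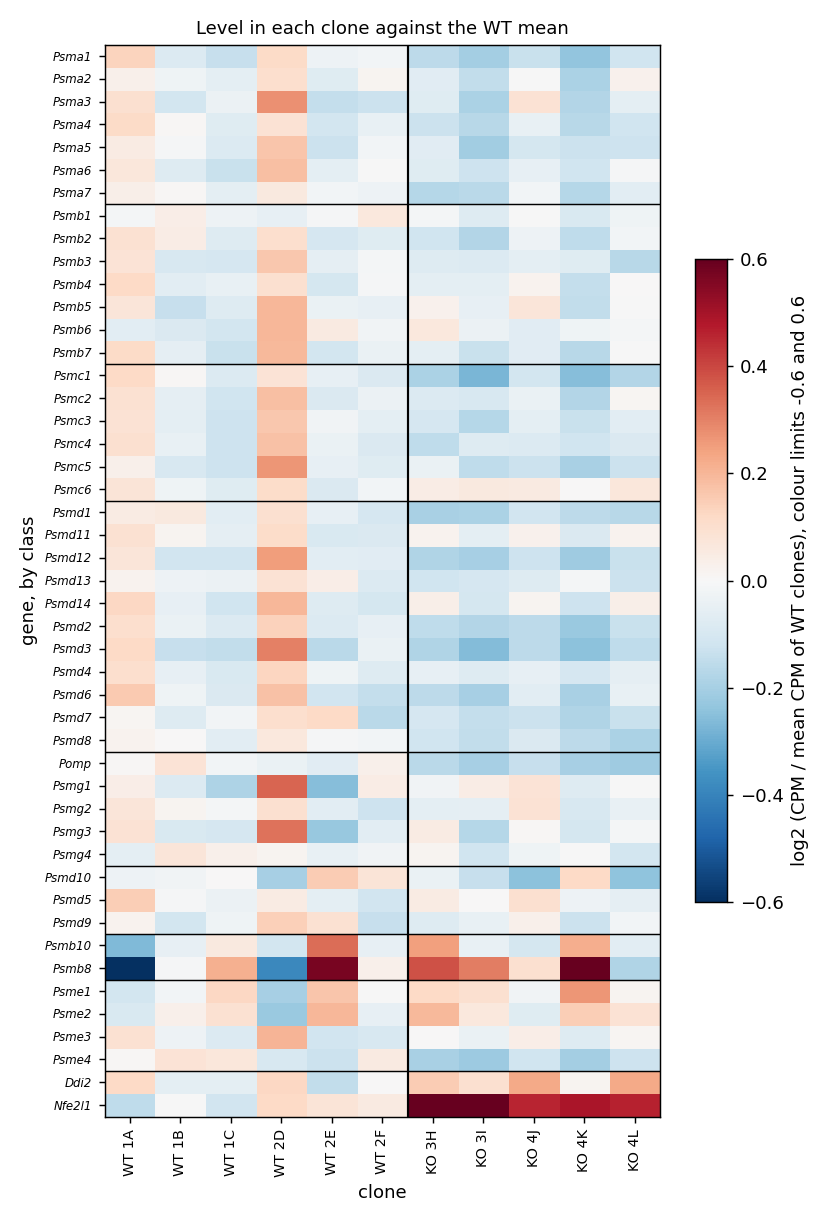
Heat map of log2 (CPM over the mean of the WT clones) for each tested member (rows, by role) in each of the 11 clones (columns, WT left of the line). Core and cap rows are reddest in WT 2D and 1A and bluest in KO 3I and 4K, and the Nfe2l1 row is red in all 5 KO clones.

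Granule and late neutrophil genes varied between clones beside the subunit genes. The summed level of the 10 late neutrophil markers was 1607 CPM in WT 2D, 189.6 in WT 1A and between 28.6 and 96.4 in the other WT clones, and it was 87.6, 35.2, 131, 18.0 and 178.5 CPM in the 5 KO clones. None of the 7 tested markers of this list was called in edgeR's test, and Retnlg and Camp were at 0 in WT 2E and KO 3I and 4K. Elane, the neutrophil elastase gene, had 825 and 373 CPM in WT 2D and 1A and 2.26 and 8.87 CPM in KO 4K and 3I, the clones with the highest and the lowest subunit levels. Other genes of the progenitor list ran otherwise. Kit, the stem cell factor receptor gene, was lowest in WT 2D (515 CPM) and highest in KO 4K (866.5 CPM). Cd34 was lowest in WT 2D and 1A (1202 and 1207 CPM) and highest in KO 4K (2209 CPM), Flt3 was lowest in WT 2D (65.1 CPM), and the granule gene Ctsg was highest in WT 2F (3457 CPM). The part of these genes in the subunit differences was not tested.

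The cap assembly chaperones Psmd5, Psmd9 and Psmd10 were not called, with log2 fold changes of 0.01 ± 0.05, -0.05 ± 0.06 and -0.10 ± 0.08 (SE). Psmd10, which encodes gankyrin, had the highest level of them per length in WT clones, at 29.5 ± 2.38 CPM per kb, and 27.5 ± 2.97 in KO clones (SD). Psmd10 was lowest among WT clones in WT 2D (37.7 CPM) and highest in WT 2E (48.1 CPM). For Psmd9, 25.5% of the exon length overlaps an antisense gene.

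The 4 activator genes, whose products cap the core in place of the ATPase-bearing cap, were not called in edgeR's test or limma-voom, and DESeq2 called 1, Psme4, lower. Psme4 encodes an activator known from nuclear proteasomes and sperm development. It ranged from 235 through a median of 262.5 to 272 CPM in WT clones and was 224.5, 221, 237, 223 and 236 CPM in the 5 KO clones, with 4J and 4L inside the lower end of the WT range. Its log2 fold change was -0.17 ± 0.05 (SE; edgeR adjusted p = 0.0555), and it was called without WT 2D or without WT 2E (lowest adjusted p = 0.0295). Psme3, the nuclear activator and the most abundant per length (149 ± 13.6 CPM per kb in WT and 148 ± 4.67 in KO clones, SD), had a value of -0.01 ± 0.06. Psme1 and Psme2, the interferon-inducible pair, had 0.10 ± 0.07 and 0.09 ± 0.08.

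The immunoproteasome genes varied widely between clones of both genotypes and were not called. Psmb8 had 62.2, 108, 125, 82.7, 160.3 and 111 CPM in WT clones 1A to 2F, and 141, 134, 116, 173 and 95.4 CPM in KO clones 3H to 4L. Its log2 fold change was 0.28 ± 0.23 (SE; edgeR adjusted p = 0.528), and that of Psmb10 was 0.06 ± 0.11 (edgeR adjusted p = 0.811). Psmb10 ranged from 55.1 through a median of 63.9 to 83.5 CPM in WT clones and was 78.4, 64.1, 61.5, 76.8 and 63.3 CPM in the 5 KO clones. Both genes were lowest in WT 1A and high in WT 2E and KO 4K, and the groups overlapped. Of the exon length of Psmb8, 14.7% is shared with an antisense gene.

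Per length, Psmb8 was set beside Psmb5, the constitutive gene whose product it replaces. The ratio of Psmb8 to Psmb5 in CPM per kb ran from 0.609 (WT 1A) to 1.70 (WT 2E) in WT and from 0.984 (KO 4L) to 1.97 (KO 4K) in KO clones, with means of 1.13 ± 0.402 and 1.39 ± 0.376 (SD, n = 6 and 5). The ratio of Psmb10 to Psmb7 was lower, 0.298 ± 0.0647 and 0.326 ± 0.0453, and that of Psme1 to Psme3 was 0.898 ± 0.155 and 0.959 ± 0.105. All 3 ratios overlapped between genotypes. Psmb5 and Psmb7 have pseudogene copies, which limits these ratios.

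Over the 11 clones Psmb8 varied with genes of antigen processing. Pearson r of log2 CPM was 0.98 with Tap2 and 0.91 with Tap1, which encode the peptide transporter, 0.87 with Psmb10 and 0.89 with Psme1. With genotype means removed the values were 0.98, 0.94, 0.88 and 0.87. Several constitutive subunits ran the other way, with r of -0.93 for Psmb4 and -0.88 for Psmd6. These are descriptions over 11 clones that share scaling. Of 13 tested genes of antigen processing 0 were called in edgeR's test (1 lower and 1 higher at an unadjusted p under 0.05; limma-voom 0, DESeq2 1 higher), and the median log2 fold change was 0.02. B2m, the most abundant, had 515 ± 80.3 CPM in WT clones (SD) and a log2 fold change of 0.02 ± 0.13 (SE).

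**Figure D4:**
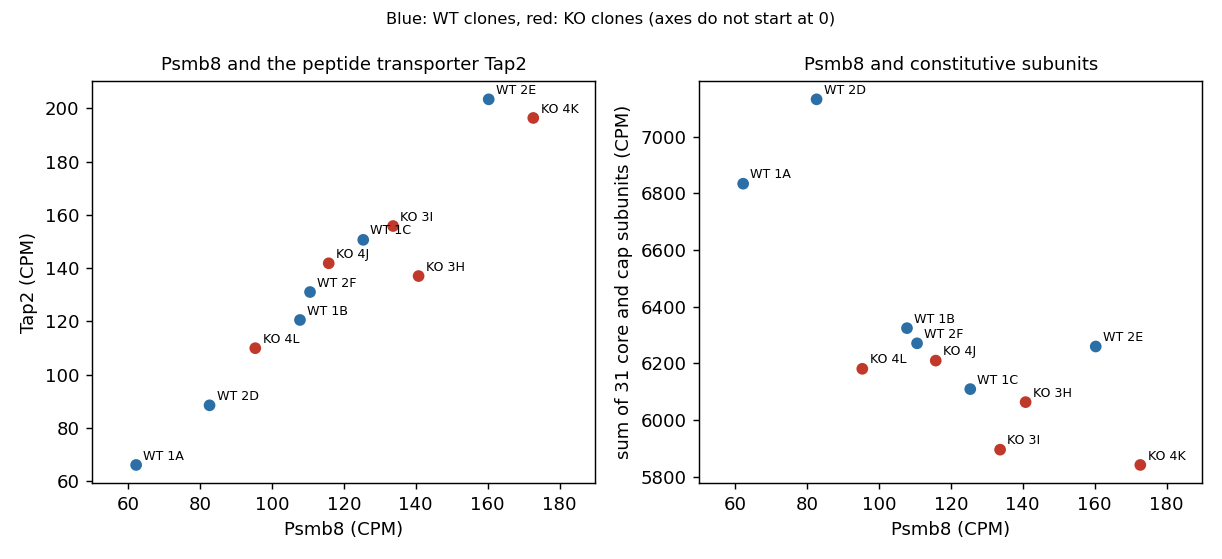
Psmb8 level in CPM (x axis of both panels) against Tap2 in CPM (left) and against the summed CPM of the 31 core and cap subunits (right), 1 point per clone, WT in blue and KO in red, on axes that do not start at 0. Tap2 follows Psmb8 (r = 0.98), and WT 1A and 2D, the clones of lowest Psmb8 level, have the highest subunit sums.

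The promoter of Psmb8 (RefSeq, GRCm38.p6, chr17:34197945-34198194, plus strand, 250 bases before the start) is shown for contrast with the subunit promoters above, with the same letters in capitals. Its only match was TTCNNNGAA. The GRCm38 gene annotation starts Psmb8 at 34197721, so this whole window lies inside the annotated gene.
Psmb8: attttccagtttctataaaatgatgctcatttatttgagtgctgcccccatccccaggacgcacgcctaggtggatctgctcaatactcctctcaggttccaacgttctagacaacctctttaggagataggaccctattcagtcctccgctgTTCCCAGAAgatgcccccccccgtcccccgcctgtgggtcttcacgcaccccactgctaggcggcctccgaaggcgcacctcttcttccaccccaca

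Over the 11 clones, the member whose pattern was most like that of Nfe2l1 was Ddi2 (Pearson r of log2 CPM 0.53), and the least like were Pomp (-0.88), Psme4 (-0.86) and Psmc1 (-0.82). These values hold the genotype difference. With genotype means removed they were -0.21, -0.17, -0.58 and -0.32, and Psmb6 had the highest value, 0.64. All are descriptions over 11 clones with shared scaling.

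Genes on the route by which NRF1 is made, extracted, cut and paired gave 4 higher and 1 lower call of 19 tested (21.1% and 5.26%, against 2.76% and 2.29% of all tested genes), with a median log2 fold change of 0.02 (DESeq2 gave 5 and 1, limma-voom 4 and 0). Mafg, a small MAF partner of NRF1, rose from 85.8 ± 6.55 CPM in WT clones (SD) by a log2 fold change of 0.31 with a standard error (SE) of 0.05 (edgeR adjusted p = 0.00878). Its WT clones ran from 79.2 through 84.6 to 97.2 CPM, and the 5 KO clones had 110.5, 109, 103, 104 and 107 CPM, without overlap, as in 2.97% of all tested genes. Herpud1 and Sel1l, parts of the degradation complex of the endoplasmic reticulum, rose by 0.35 ± 0.06 and 0.36 ± 0.07 on the log2 scale (edgeR adjusted p = 0.0113 and 0.0164). These 3 calls held without any 1 clone (highest adjusted p = 0.0486, Sel1l). Aup1, which recruits a ubiquitin-conjugating enzyme there, rose by 0.12 ± 0.03 (edgeR adjusted p = 0.0267), a call lost without KO 3H, 3I, 4J or 4K or without WT 1A, 1B or 2F (highest adjusted p = 0.0700). The ubiquitin ligase Syvn1 fell by 0.17 ± 0.04 (edgeR adjusted p = 0.0488), a call that held only without WT 2E (highest adjusted p otherwise 0.110). Extraction and processing genes Vcp and Ngly1 had values of -0.08 ± 0.06 and 0.04 ± 0.10, the related factor Nfe2l2 0.03 ± 0.06 and Hcfc1, the gene of highest mean CPM in the list, 0.02 ± 0.03. Nfe2l3, a further relative, did not pass the filter.

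Among 19 tested genes of proteins that bind or serve the proteasome, 1 was called lower and 0 higher in edgeR's test (3 lower and 4 higher at an unadjusted p under 0.05, where 10.3% and 10.0% of all tested genes were), with a median log2 fold change of 0.004. DESeq2 called 1 lower and 2 higher, and limma-voom 1 lower and 0 higher. Txnl1, a redox protein bound to the cap, fell by 0.15 ± 0.04 on the log2 scale (edgeR adjusted p = 0.0444), a call that held only without WT 2D or 2F (highest adjusted p otherwise 0.1085). The ubiquitin receptor gene Adrm1 had -0.05 ± 0.07, the deubiquitinase genes Usp14 and Uchl5 -0.06 ± 0.07 and -0.01 ± 0.07, and Rad23b, the gene of highest mean CPM in WT clones in the list, 0.03 ± 0.07. Of the genes of ubiquitin supply, Uba1, which encodes the ubiquitin-activating enzyme and was the most abundant of its list, had -0.0009 ± 0.03 and was not called. Of 11 tested heat shock genes, 1 was called higher (9.09%, against 2.76% of all tested genes) and 0 lower. The list leaned the other way, as 9 of the 11 values were negative and their median was -0.07. The called gene, Hspa8, rose by 0.17 ± 0.04 (edgeR adjusted p = 0.0395). Its call held only without WT 2D (highest adjusted p otherwise 0.0929). Hsp90ab1, the most abundant of that list, had -0.01 ± 0.05.

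Psma8, the alpha-ring gene known for its role in the testis, had more than 1 count in 1 clone only. KO 3I had 1292 counts (54.9 CPM), WT 2D and KO 4L had 1 count each and the other 8 clones had 0. A count of 0 allows up to 3 counts per library, and this limit covers counting error only. Its neighbours did not share this pattern: Ss18, on 1 side, had 109.9 CPM in KO 3I and 93.6 to 103 CPM in the other 10 clones, Taf4b, on the other side, 32.4 and 22.6 to 34.0 CPM, and Kctd1 36.7 and 29.4 to 42.1 CPM. Psmb11, the thymus-type catalytic subunit gene, had 1 count in each of WT 1A, 1C and 2E and 0 in the others.

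**Figure D5:**
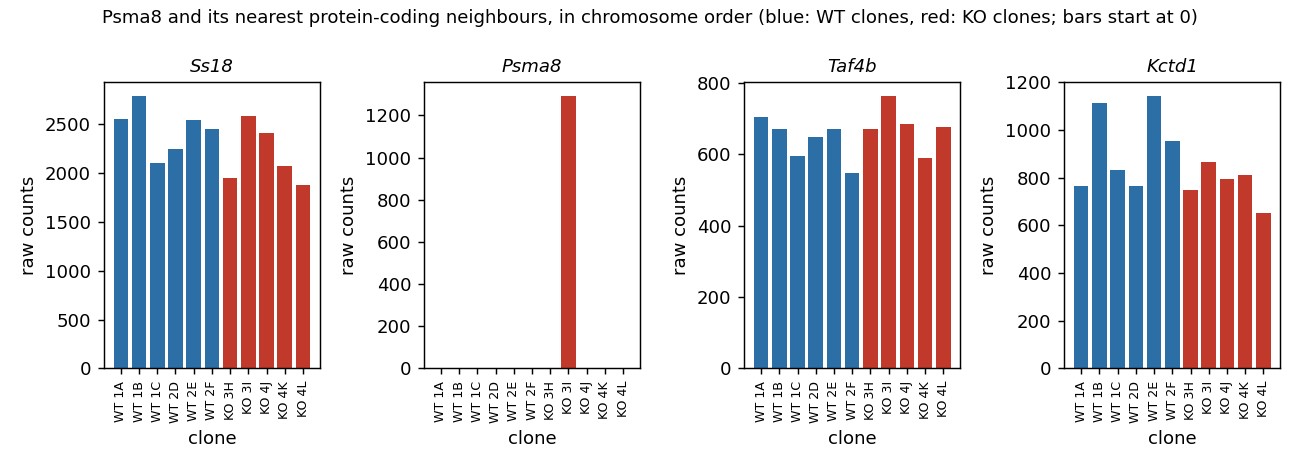
Raw counts (y axes, starting at 0) of Psma8 and 3 neighbouring genes in each clone, WT in blue and KO in red. Psma8 has 1292 counts in KO 3I and at most 1 elsewhere, while Ss18, Taf4b and Kctd1 are counted in all 11 clones.

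Between the title numbers within a genotype, no member was called, as was no other gene. In the contrasts of WT 2 against 1 and KO 4 against 3, 0% and 0% of the 11900 tested genes were called in edgeR's test. At an unadjusted p under 0.05 there were 372 and 161 genes, among them 2 and 1 members, and no other tool was run on these contrasts. Nfe2l1 was among them in both, with log2 fold changes of 0.17 ± 0.05 (WT 2 minus 1; unadjusted p = 0.00502 in edgeR's test) and -0.22 ± 0.05 (KO 4 minus 3; unadjusted p = 0.00202, SE), and the other member was Psmb6 (WT 2 minus 1, 0.17 ± 0.06). Median log2 fold changes of the members were 0.03 and 0.02.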

How the data were processed

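RNA from 11 clones, 6 WT and 5 Taz KO, was sequenced as polyA-selected, strand-specific libraries, per the labels' protocols. For each clone the authors deposited raw gene counts with Ensembl identifiers. Per the submitters' processing notes, the tools were STAR, HTSeq and edgeR and the build was mm9, all without versions. No source used here names the annotation release. A mark in the deposited counts says that counting ignored strand, and reads matching several places were not assigned to genes. The counter's totals of reads in no gene (5.41% to 6.94%) and of ambiguous reads (2.70% to 2.93%), were left out of library sizes and tests because they name no gene.

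A GRCm38 annotation gave symbols to 32860 of 37583 gene identifiers (87.4%, with 99.6% of the counts) and was used for names, exon lengths and overlaps. Coordinates and promoter sequences are of that build, those of promoters from RefSeq, and were not used to read the counts. Genotypes were compared by the robust quasi-likelihood test of edgeR (TMM, filterByExpr, Benjamini-Hochberg adjustment over all tested genes, threshold 0.05) on the counts of all 11 clones. CPM values use the scaled library sizes, and CPM per kb divides them by the joint length of basic exons. Standard errors were worked back from the test's F statistic. All pairs of same-genotype libraries differed beyond sampling noise (chi-square per gene 15.0 or more). Precision rests on the number of clones and on 423 or more counts for every tested member. Title numbers were compared in a model of 4 means. Tests were tried on simulated data.

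The members and gene lists were chosen with earlier results of these data known, so lists are described by counts and medians, with no list test. The rule for named genes takes Taz, every called member, Nfe2l1, Ddi2, Pomp and the immunoproteasome genes, in each class the members of largest and smallest fold change and of highest level per length, and from other lists the called genes and the most abundant. Psmd2, Psmd12, Psmd9, Psmg3, Psmb5 to Psmb7, Psma3, Psmb11, Elane, Mpo, Kit, Cd34, Flt3, Ctsg, Vcp, Ngly1, Nfe2l2, Nfe2l3, Adrm1, Usp14, Uchl5, Retnlg, Camp and the neighbours of Psma8 were chosen after their values were seen. The same holds for Ccr2, Pecam1, Ebf1 and Cpa3. A gene of the ubiquitin supply list, and with it the count of calls in that list, is not reported here. The alternatives were upper-quartile and RLE scaling, a stricter filter and none, a non-robust fit, DESeq2, limma-voom, title numbers as means, as summed counts or as a random block, and leaving out each clone or title number. Software was Python 3.11.15, matplotlib 3.10.9, R 4.3.3, DESeq2 1.42.0, limma 3.58.1 and edgeR 4.0.16.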

Additional observations from a re-analysis of the deposited data

Results flagged for a closer look

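In 97 groups of clones (each member in each genotype), 5 had a highest or lowest clone that stood far from the others of its genotype by Dixon's test, where chance gives about 5%. Psma8 was at 54.9 CPM in KO 3I, where the next KO clone was at 0.0502 CPM. It was at 0.0432 CPM in WT 2D, which is 1 count, where the other WT clones were at 0. Psmc5, a cap ATPase gene, was at 208 CPM in WT 2D against 177 CPM in the next clone and 159 CPM in the lowest. Psmg2, a core assembly chaperone gene, was at 76.5 CPM in KO 4J against 69.9 CPM in the next clone. Psmb3, a beta ring gene, was at 49.8 CPM in KO 4L, below 52.8 CPM in the next and 53.8 CPM in the highest KO clone.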

How the results depend on the processing

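Called members kept their direction under all 25 other settings and under 1 added after the data were seen. The number called lower, 4, was 1 without the filter, 8 with DESeq2 and 1 with title-number means. It was 11 (with 2 higher) with the title number as a random block in limma-voom, whose estimated correlation was -0.21, and 0 (with 0 higher) with counts summed per title number. Without title number 1 it was 0 (with 0 higher), without 2 it was 2, and without 3 or 4 it was 0 and 0. Leaving out 1 clone gave 1 to 6 lower members and always 1 higher. Without WT 1A and 2D, chosen after the data were seen, 2 were higher and 4 lower. Nfe2l1 was called in 23 of the 25 (highest adjusted p = 0.0847) and Pomp in 21 (0.245), against 10 for Psmc1, 10 for Psmd1 and 12 for Psmd8. The causes of these differences were not tested. RLE and upper-quartile scaling kept the same 5 calls and changed no sign. No paired analysis was possible because the genotypes share no replicate numbers.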
